A study of Mus musculus with 12 samples.

Results

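The genes that encode the proteins of the cytosolic ribosome were examined in fibroblasts undergoing reprogramming to pluripotent cells. Members were all genes of the deposited expression table whose symbol has the form of a ribosomal protein name (Rpl, Rps or Rplp with a number and, for some, a further letter or number) and that reached at least 1 FPKM in at least 1 library. FPKM is the number of sequenced fragments normalised to transcript length, so that levels are given per length, and scaled by library in a way that was not given. The rule found 83 symbols among 24098 genes, and all 83 reached the minimum. They comprise 43 genes of the large subunit, 30 of the small subunit, 3 of the stalk (Rplp0, Rplp1, Rplp2) and 7 whose symbol marks them as a paralog of another member (Rpl3l, Rpl7l1, Rpl10l, Rpl22l1, Rpl39l, Rps4l and Rps27l). The lowest member was Rpl3l, whose highest value was 6.29 FPKM.

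Polyadenylated RNA was sequenced in 12 mouse libraries, 1 for each condition, so no difference given here has a replicate check. D0 was the starting mouse embryonic fibroblasts (MEFs) and D3 the unsorted culture 3 days after infection with pMXs retroviruses carrying Oct4, Sox2, Klf4 and c-Myc. These fibroblasts came from embryos that carry an EGFP reporter behind the endogenous Oct4 gene. Cells of days 6 and 9 were sorted into Thy-1- (D6T-, D9T-) and Thy-1+ (D6T+, D9T+) fractions, Thy-1 being a surface protein of fibroblasts. Cells of days 12 and 16 were sorted into SSEA-1+ (D12S+, D16S+) and SSEA-1- (D12S-, D16S-) fractions, SSEA-1 being a surface carbohydrate of pluripotent cells. The Thy-1- and SSEA-1+ fractions are those enriched for cells on their way to pluripotency. Induced pluripotent stem cells (iPSCs) and the embryonic stem cell line ES-D3 (mESCs) were the end points. The labels place these lines in FF medium, the medium used for reprogramming, which holds knockout serum replacement, LIF, bFGF, ascorbic acid and CHIR99021, whereas the study's methods name other media for them. In bulk libraries fewer cells of a type and less RNA per cell cannot be told apart. The labels fit the markers: 5 of 5 fibroblast genes were higher in D0 than in iPSCs and 5 of 5 pluripotency genes were higher in iPSCs, and the 3 leukocyte genes summed to between 12.5 FPKM (D0) and 116 FPKM (D16S-). Nearly all of that sum in D16S- was Cd68 (115 FPKM), a lysosomal protein of macrophages, while Ptprc, the pan-leukocyte marker CD45, was at most 0.425 FPKM in any library and Tyrobp at most 3.38 FPKM. Viral and endogenous c-Myc reads cannot be told apart.

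A mammalian ribosome holds a single copy of nearly every ribosomal protein, and the mRNAs of these proteins are among the most abundant in a growing cell. They are known for a pyrimidine tract at their 5′ end, the TOP motif, through which mTORC1 and LARP1 set their translation together, and for promoters without a strong TATA box that bind factors such as GABPA and SP1. Most of these genes have left processed pseudogenes in the genome, and a few have intact retrocopies or duplicates that are used in some tissues only, such as Rpl10l in the testis and Rpl3l in striated muscle.

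Where the paralogs differ from the genes they resemble bears on which reads can be assigned to each. The first 60 coding bases are shown for the 3 paralogs with a mean of at least 10 FPKM whose levels departed most, each with its counterpart, from the GENCODE M1 transcripts of the mm9 build. Capitals mark the bases that differ within a pair.
Rpl10l: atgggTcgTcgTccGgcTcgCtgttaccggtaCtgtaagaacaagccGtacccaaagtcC
Rpl10: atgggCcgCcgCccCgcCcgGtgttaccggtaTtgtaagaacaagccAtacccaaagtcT
Rps4l: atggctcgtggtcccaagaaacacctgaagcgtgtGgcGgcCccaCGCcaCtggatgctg
Rps4x: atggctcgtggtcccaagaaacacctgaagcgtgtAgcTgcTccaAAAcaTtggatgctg
Rpl39l: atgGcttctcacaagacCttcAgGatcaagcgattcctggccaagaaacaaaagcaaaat
Rpl39: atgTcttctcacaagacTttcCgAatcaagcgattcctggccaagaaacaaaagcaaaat
There were 9 differences between Rpl10l and Rpl10, 7 between Rps4l and Rps4x and 4 between Rpl39l and Rpl39 in these stretches. Over the whole coding sequence the identity was 84.8% for Rpl10l and Rpl10, 80.1% for Rps4l and Rps4x and 85.3% for Rpl39l and Rpl39. The other pairs were less alike, from 76.1% for Rps27l and Rps27 to 56.9% for Rpl7l1 and Rpl7.

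The members took a large part of every library. Their share of the summed FPKM was 14.9% in D0, 18.3% in D3, 22.8% in D6T-, 22.8% in D9T-, 21.0% in D12S+, 22.0% in D16S+, 23.0% in iPSCs and 24.2% in mESCs. It was 16.7% in D6T+, 19.8% in D9T+, 20.5% in D12S- and 17.2% in D16S-. The fibroblasts thus had the lowest share of the 12 libraries, and the 2 pluripotent lines the highest. Thy-1- cells exceeded Thy-1+ cells by 6.10 percentage points on day 6 and by 2.99 points on day 9, and SSEA-1+ cells exceeded SSEA-1- cells by 0.50 points on day 12 and by 4.71 points on day 16. The share in iPSCs was 1.54 times that in D0.

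**Figure D1:**
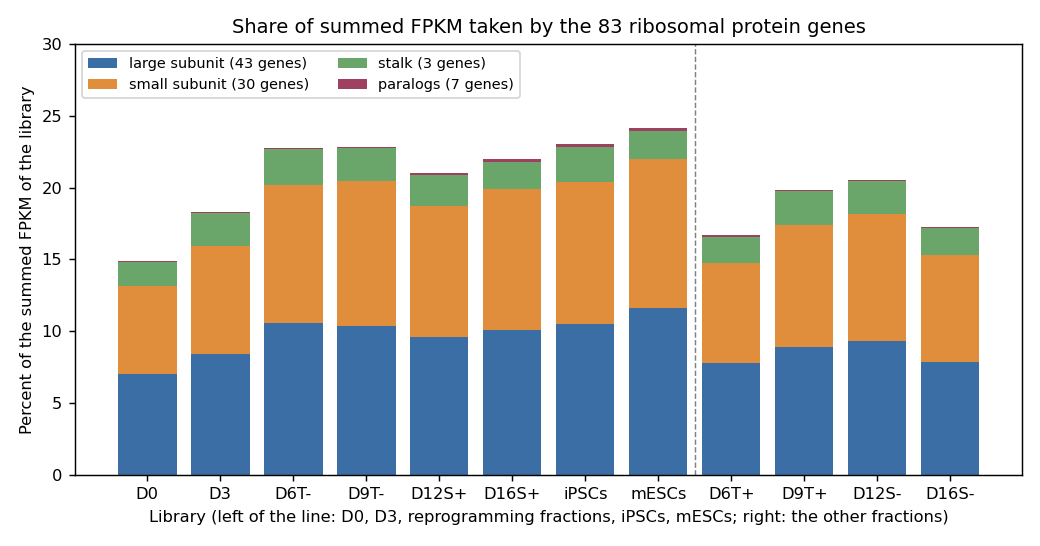
Share of the summed FPKM of each library taken by the 83 members, in percent, with 1 bar per library split by large subunit, small subunit, stalk and paralog genes. D0 (14.9%) is the lowest bar, D6T+ (16.7%) and D16S- (17.2%) follow, and mESCs (24.2%) is the highest; the paralogs are barely visible.

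Both subunits had larger shares in the pluripotent lines than in D0. Large subunit genes held 7.03% of the summed FPKM in D0 and 10.5% in iPSCs, and small subunit genes 6.13% and 9.90%. The 3 stalk genes, which form the lateral protuberance that recruits elongation factors, held 1.69% in D0 and 2.38% in iPSCs. The 7 paralogs held 0.0719% in D0 and 0.224% in iPSCs. Among the 100 genes with the highest FPKM, 38 were members in D0 and 58 in iPSCs.

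The share also depends on what else a library holds. D0 had the highest summed FPKM (648264) and the highest fibroblast markers, whose 5 genes summed to 5975 FPKM there and to 29.8 FPKM in D16S+. When the 100 most highly listed genes that are no members were left out of the total, the share was 19.1% in D0 and 27.3% in iPSCs. The depth of the libraries relative to D0, estimated from the steps between low values, was 1.49 in D3, 1.56 in D6T-, 1.51 in D16S+ and 1.26 in D6T+, and between 0.966 and 1.09 in the others. The highest share, that of mESCs, was at a depth of 1.03. The deposited table gives no fragment counts, so absolute depth is unknown and no counting interval can be given.

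Levels of single members spanned a wide range. A mean of at least 1000 FPKM over the 12 libraries was reached by 40 members, 34 lay between 100 and 1000 FPKM, 6 between 10 and 100 FPKM and 3 below 10 FPKM. The highest were Rplp1 (mean 5739 FPKM), an acidic stalk protein, Rpl41 (4042 FPKM), the smallest ribosomal protein, and Rps12 (3754 FPKM), a small subunit protein. FPKM of very short transcripts such as Rpl41 rests on few positions and is less certain. At the other end stood Rpl22l1 (7.25 FPKM), Rpl39 (5.04 FPKM) and Rpl3l (0.895 FPKM). Rpl39, Rps27, Rps15a and Rpl26, all core ribosomal proteins, were also listed below 100 FPKM on average.

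The 83 members lie at dispersed loci, 4 of them on the X chromosome (Rpl10, Rpl36a, Rpl39 and Rps4x). Many have near-identical copies. The authors removed reads that mapped to more than 1 locus, so the sequence that each member shares with the rest of the genome was measured. For 82 members with a GENCODE M1 coding transcript, the share of 50-base windows found exactly elsewhere on the mm9 chromosomes had a median of 60.3%, from 0% (Rpl39l) to 99.7% (Rps27). In 47 of the 82 at least 50% of the windows were found elsewhere, as against 2.70% of 12758 kept genes that are no members. Windows of 100 bases had a median of 43.3% and windows of 200 bases 13.2%.

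The relation of shared sequence to level was weak. Across the 82 members, Spearman's rho of the shared percentage was 0.10 with the mean level and -0.17 with the range over the libraries, as a description in which all points come from the same 12 libraries. Rps12, with a mean of 3754 FPKM, had 98.1% of its windows found elsewhere. Rps15a stood at a mean of 36.2 FPKM with 8.66%, but the transcript searched for it was 3721 bases long, against 517 for Rps12. These percentages, and the rho values, depend on the transcript chosen for each gene, and other choices were not tested. Medians of the differences between libraries were also near each other. Members with at least 50% of windows elsewhere had a median of 0.47 (log2, 47 genes) between iPSCs and D0 and the remaining 35 had 0.50, and between D16S+ and D16S- the medians were 0.29 and 0.33.

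**Figure D2:**
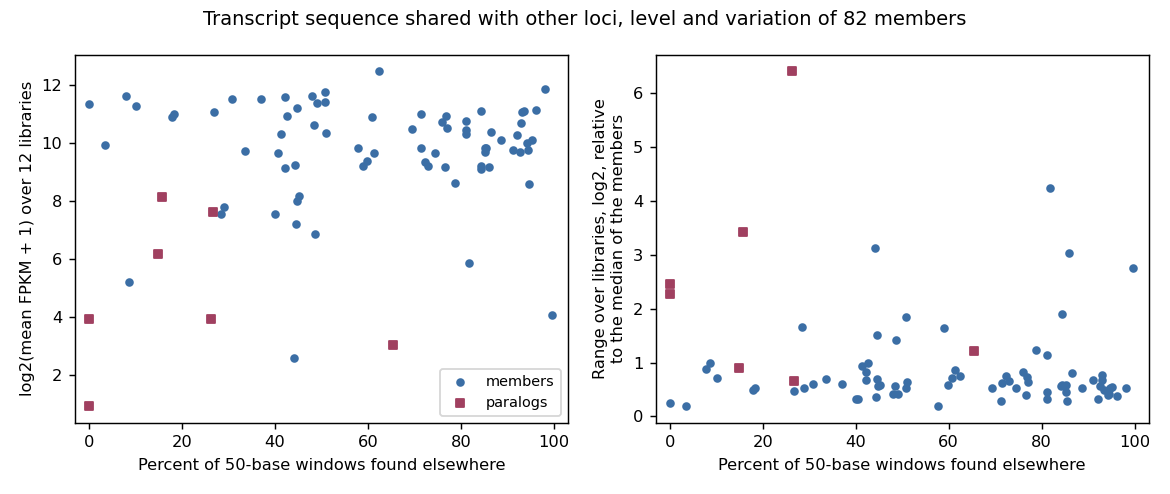
Each point is 1 of the 82 members with an annotated transcript; the x axis gives the percent of its 50-base windows found elsewhere on the mm9 chromosomes, and the y axes give log2(mean FPKM + 1) over 12 libraries (left) and the range of its log2 level relative to the median of the members (right). Members with wide ranges are found at both low and high percentages.

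Differences between libraries are given as log2(FPKM + 1), which understates those of low genes, and their background is the 14178 genes that reached 1 FPKM in any library. A member was counted as higher or lower when it differed by at least 1.5-fold on this scale. The interval that cuffdiff gives each FPKM is modelled from a single library, and its median half-width was 100% of the FPKM for members. The intervals of no member were apart in any of the 9 comparisons, as in 0% of all genes for D6T- and D6T+, D9T- and D9T+, D12S+ and D12S-, and iPSCs and mESCs. The share of all genes with intervals apart was 0.0141% between the day-16 fractions and, against D0, 0.134% for D3, 0.896% for D16S+, 0.388% for D16S- and 0.987% for iPSCs. Comparisons with D0 share that library, so they are given side by side and are not independent.

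Between iPSCs and D0 nearly all members were higher in iPSCs. The median difference was 0.47, against 0.03 for all genes, and 80 of 83 were higher by any amount, as against 51% of all genes. At least 1.5-fold higher were 29 members (34.9%), as against 29.9% of all genes. With every library scaled to the same summed FPKM these were 53 members (63.9%) and 35.5% of all genes, and with centring on the median of all genes 41 members (49.4%) and 33.4%. On the values as deposited none was at least 1.5-fold lower, as against 30.7% of all genes. The middle 50% of the members ran from 0.27 to 0.66, all above 0. The median was 0.42 in large subunit genes, 0.52 in small subunit genes and 0.25 in the 3 stalk genes.

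Other comparisons with D0 had smaller medians. D3 differed from D0 by a median of 0.06 (all genes -0.02), with 50 members higher by any amount (46.4% of all genes), 5 at least 1.5-fold higher (13.2%) and 1 lower (18.2%). D16S+ differed by 0.24 (all genes 0.05), with 60 above D0 (51.7%), 21 higher (31.7%) and 2 lower (30.5%). D16S- differed by -0.03 (all genes 0.00), with 38 above D0 (49.1%), 2 higher (21.2%) and 4 lower (23%). When every library was scaled to the same summed FPKM, which moved the median of all genes to 0.35 for D16S+ and 0.19 for D16S-, the medians of the members were 0.65 and 0.27, that is 0.31 and 0.08 above all genes.

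Sorted fractions of the same day have no library in common with each other. On day 6, Thy-1- cells were above Thy-1+ cells by a median of 0.37 (all genes 0.00), and 79 of 83 members were higher, as against 50.3% of all genes. Just 4 members were at least 1.5-fold higher (11.1%) and 1 was lower (17.8%), so that the difference was small and common to most members. On day 9 the median was 0.09 (all genes 0.02) and 54 were higher by any amount (51.5%), with 12 at least 1.5-fold higher (9.42%) and 1 lower (13.4%). On day 12, SSEA-1+ and SSEA-1- cells were nearly level, with a median of -0.02 (all genes -0.01), 35 members higher by any amount (48.3%), 2 at least 1.5-fold higher (11.2%) and 1 lower (11.8%). On day 16 the median was 0.30 (all genes -0.02), 72 of 83 were higher (48.3% of all genes), 19 were at least 1.5-fold higher (22.6%) and 0 lower (25.7%).

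Where 5 or fewer members passed 1.5-fold they were as follows, several of them named after their values were seen. Above D0 in D3 were Rpl39, Rpl30, Rpl26, Rps27 and Rps25, and below it Rpl22l1, although Rpl39 and Rpl22l1 lie under 10 FPKM on average. Below D0 were Rpl39l and Rpl41 in D16S+ and Rpl39l, Rps4l, Rpl41 and Rpl26 in D16S-. Above D0 in D16S- were Rpl39 (2.52 against 0.977 FPKM) and Rpl10l (0.582 against 0.0529 FPKM), both at low values. Between fractions, Rpl26, Rps4x, Rpl3 and Rps12 were higher in D6T-, Rpl10l and Rps4l were higher in D12S+, Rps27 was lower in D12S+, and Rpl39l was lower in D6T- and in D9T-.

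Between the pluripotent lines, iPSCs differed from mESCs by a median of -0.20 (all genes -0.01). By any amount 15 members were higher in iPSCs (47.8% of all genes). At least 1.5-fold higher were 3 (15.5%), namely Rpl29, Rplp0 and Rps3a1, and 7 were lower (17%), of which Rpl10l and Rpl26 differed most (-2.27 and -1.58). In mESCs the median member stood at 1340 FPKM and in iPSCs at 1083 FPKM.

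**Figure D3:**
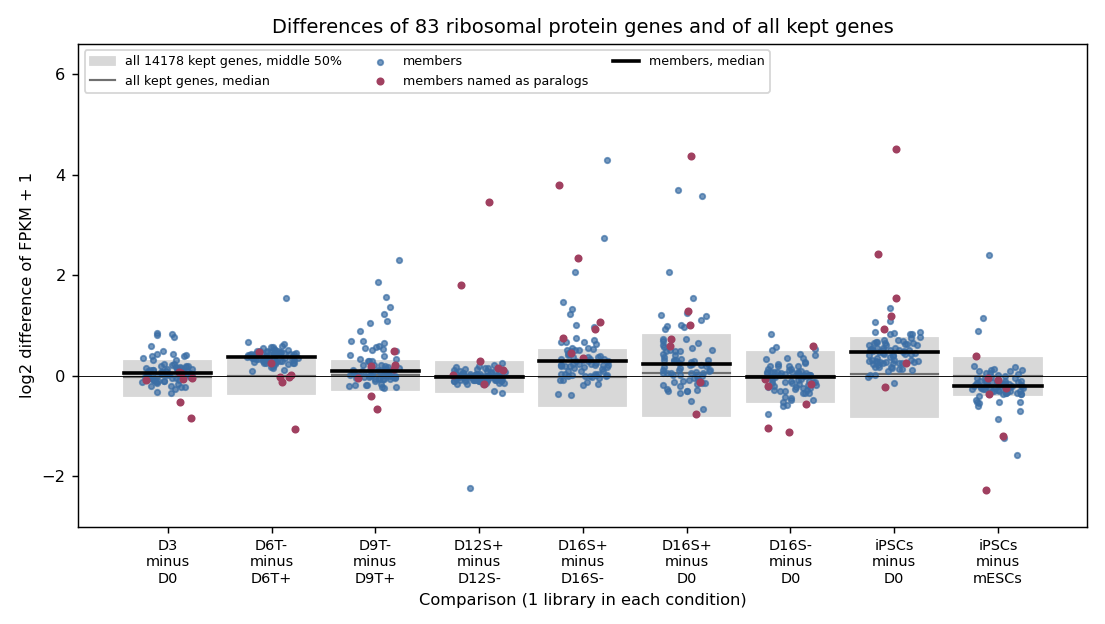
Differences in log2(FPKM + 1) of the 83 members in 9 comparisons of single libraries; points are members, with paralogs in red, black lines the medians of the members, and grey boxes and lines the middle 50% and the median of all 14178 kept genes. The members lie in a tight band above the genome median for D6T- minus D6T+ (0.37) and for iPSCs minus D0 (0.47), with single genes far outside it.

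Most members varied by less than 2-fold relative to their common median. For each member the log2 level less the median of the members was taken. Its range over the 12 libraries was under 1 (less than 2-fold) for 65 of the 80 members with a mean of at least 10 FPKM. Other genes were not measured in this way, so whether this is particular to the members was not tested. Among the least variable were Rpl14 (range 0.19), a large subunit protein, and Rps3 (0.20), a small subunit protein at the mRNA entry site. The 5 most variable were Rpl10l, Rpl26, Rps4l, Rpl29 and Rps27, of which Rpl10l reached the mean of 10 FPKM only through its high libraries. In 8 of the 14 variable members with an annotated transcript at least 50% of 50-base windows were found elsewhere, as in 38 of the 65 others.

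**Figure D4:**
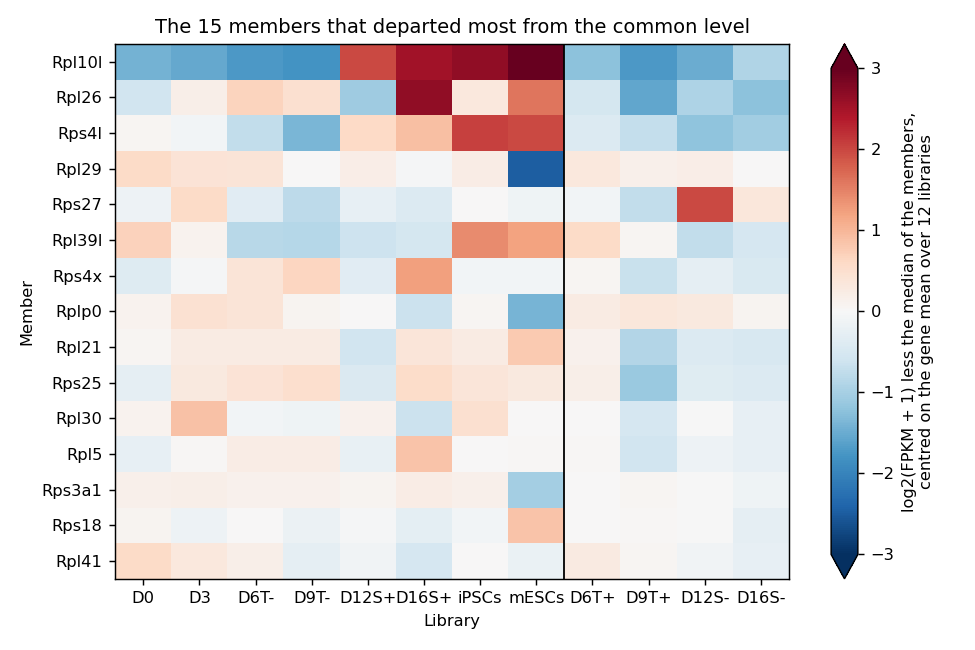
The 15 members (mean of at least 10 FPKM) whose level relative to the median of the members ranged over at least 1 on the log2 scale, in 12 libraries; colour is that relative level centred on the gene's mean, red above and blue below. Rpl10l and Rps4l are red in D12S+, D16S+, iPSCs and mESCs, Rpl26 in D16S+, Rps27 in D12S-, and Rpl29 is blue in mESCs.

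Rpl10l had the widest range of the members with a mean of at least 10 FPKM. Its mean of 14.4 FPKM reached that minimum only through the libraries where it was high, and its median over the 12 libraries was 0.158 FPKM. The filter and the rank thus rest on the same libraries. This gene, an intronless copy of Rpl10 (chromosome 12, 67384365 to 67385388), was listed at 0.0529 FPKM in D0, 0 in D3, 0.0675 in D6T- and 0.146 in D9T-. It stood at 11.6 FPKM in D12S+, 20.9 in D16S+, 23.1 in iPSCs and 115.5 in mESCs. In the other fractions it was at 0.168 FPKM in D6T+, 0 in D9T+, 0.148 in D12S- and 0.582 in D16S-. Only the SSEA-1+ and pluripotent libraries exceeded 1 FPKM, by differences of 3.45 on day 12 and 3.79 on day 16 on the log2 scale. Rpl10 itself ranged only from 834 FPKM in D16S- to 1386 FPKM in mESCs, so Rpl10l made up 1.97% of the pair in iPSCs and 7.69% in mESCs. Of the 50-base windows, 94.3% were found elsewhere for Rpl10 and 26.3% for Rpl10l. Removing reads with several loci can thus lower Rpl10 more, and its part in these percentages was not tested.

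Rps4l, a copy of the X-linked small subunit gene Rps4x, showed a related pattern at a higher level. Its values were 156 FPKM in D0, 146 in D3, 112 in D6T-, 80.6 in D9T-, 263 in D12S+, 385 in D16S+, 847 in iPSCs and 997 in mESCs, against 111 in D6T+, 107 in D9T+, 74.2 in D12S- and 75.3 in D16S-. D12S+, D16S+ and both pluripotent lines were above every other library. Rps4x had 567 FPKM in iPSCs, and in mESCs 702 FPKM, so that Rps4l was the larger part of the pair there (59.9% and 58.7%), and 31.8% of it in D0. Of the 50-base windows, 84.3% were found elsewhere for Rps4x and 15.7% for Rps4l, so the removal of reads with several loci can lower Rps4x more, and its part in this percentage was not tested. The locus listed for Rps4l (chromosome 6, 147995937 to 148392874) is far longer than the gene and also spans Far2, Ergic2 and Tmtc1, and RefSeq lists Rps4l as a transcribed pseudogene.

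Rpl39l, a copy of the X-linked gene Rpl39, was high in the lines but not in the SSEA-1+ fractions. The iPSCs had 36.7 FPKM of it and the mESCs 38.9 FPKM. D0 stood at 15.5 FPKM, D6T+ at 14.1, D9T+ at 11.7, D3 at 10.5 and the remaining 6 libraries between 6.11 and 8.77 FPKM. It was thus lower in Thy-1- than in Thy-1+ cells on days 6 and 9 (-1.05 and -0.66), against the direction of most members. No 50-base window of Rpl39l was found elsewhere. Rpl39 was highest in D16S+ (22.5 FPKM) and between 0.977 and 6.63 FPKM in all other libraries.

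Rpl3l, whose product replaces RPL3 in muscle, stayed low but was ordered like Rpl10l. It was at 0.398 FPKM in D12S+, 1.19 in D16S+, 2.19 in iPSCs and 6.29 in mESCs, and at most 0.151 FPKM in every other library, with 0 listed in D9T+. Rpl3 stood between 522 FPKM in D0 and 1400 FPKM in mESCs. The other paralogs varied less. Rps27l, a target of p53, ranged from 153 FPKM in D16S- to 253 FPKM in mESCs and was listed above Rps27 in every library. Of the 50-base windows, 99.7% were found elsewhere for Rps27 and 26.7% for Rps27l. The removal of reads with several loci can thus lower Rps27 more, and its part in this order was not tested. Rpl7l1 was highest in iPSCs at 115 FPKM and otherwise at 52.6 to 90.3 FPKM, and Rpl22l1 had its lowest value in D3 (2.95 FPKM) and its highest in D16S+ (10.7 FPKM).

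**Figure D5:**
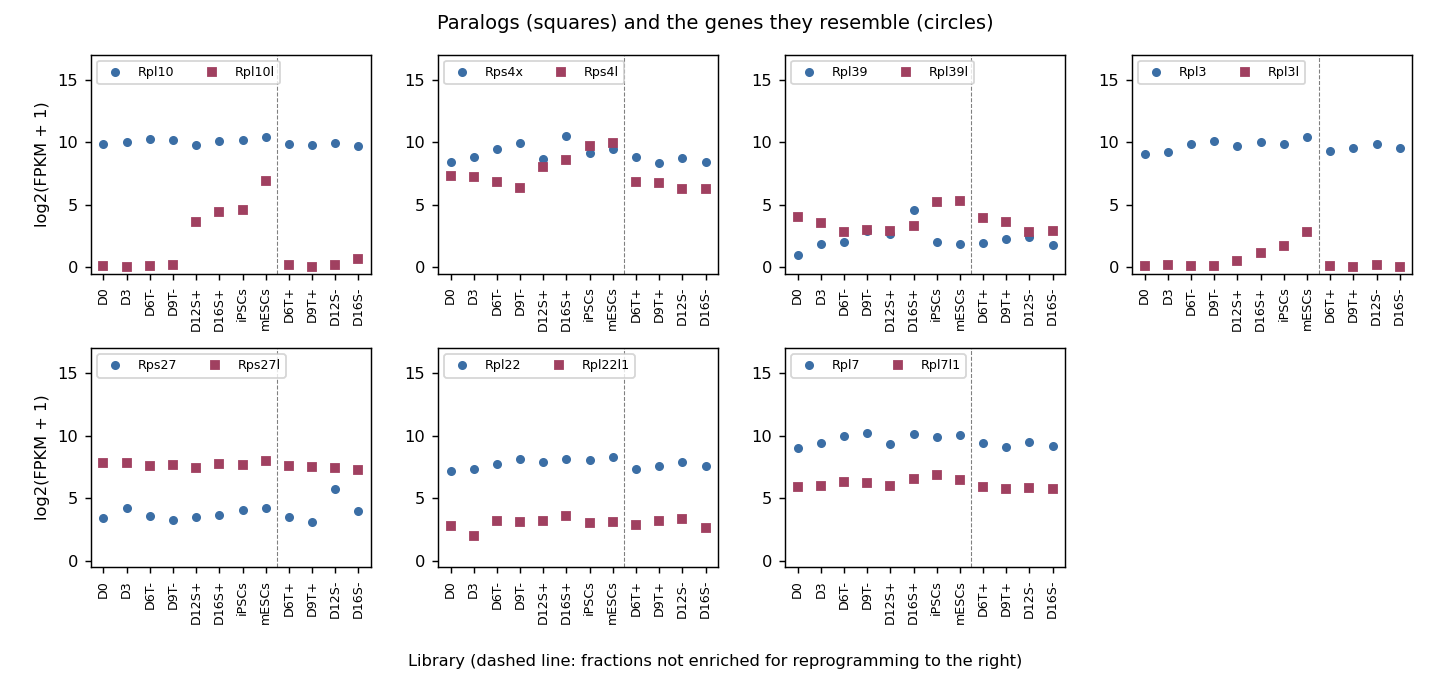
Levels as log2(FPKM + 1) of the 7 paralogs (red squares) and the genes they resemble (blue circles) in 12 libraries, with the Thy-1+ and SSEA-1- fractions to the right of the dashed line. Rpl10l stands well above the axis only in D12S+, D16S+, iPSCs and mESCs (11.6 to 115.5 FPKM), and the squares of Rps4l pass the circles of Rps4x in iPSCs and mESCs.

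Rpl26, a large subunit protein near the exit of the peptide tunnel, departed most among the core members. It was at 18.4 FPKM in D0, 32.9 in D3, 56.6 in D6T-, 55.98 in D9T-, 14.8 in D12S+, 249 in D16S+, 48.2 in iPSCs and 147 in mESCs, and at 18.7 in D6T+, 10.5 in D9T+, 16.6 in D12S- and 11.8 in D16S-. D16S+ was 23.7-fold above the lowest library, D9T+. Its fractions differed by 1.54 (day 6), 2.31 (day 9), -0.15 (day 12) and 4.28 (day 16). The interval of the D16S+ value ran from 0 to 531 FPKM, and 81.8% of the windows of Rpl26 were found elsewhere.

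Rps4x, a small subunit protein encoded on the X chromosome, had the same high libraries. It stood at 716 FPKM in D6T-, 967 in D9T- and 1408 in D16S+, against 448 in D6T+, 325 in D9T+ and 336 in D16S-, and at 397 in D12S+ against 423 in D12S-. Rpl26 and Rps4x were the only members at least 1.5-fold higher on each of days 6, 9 and 16 in the fraction enriched for reprogramming, which is 2.41% of the members and was met by 2.504% of all genes. Rps25, a small subunit protein used in some forms of internal initiation, was at 909 FPKM in D9T- against 249 in D9T+, and at 903 FPKM in D16S+ against 360 in D16S-. On day 12 it was at 390 FPKM in D12S+ and 410 in D12S-. Rpl21, Rpl5 and Rpl7, which were picked after their values were seen, had the same order: D16S+ held 249, 223 and 1131 FPKM and D16S- 106, 80.1 and 579 FPKM. D16S+ was sequenced deeper than D16S- (relative depth 1.51 and 0.999), as was D6T- than D6T+ (1.56 and 1.26), while D9T- and D9T+ were at 1.09 and 0.966, and the part of depth in these differences was not tested.

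Some members stood apart in a single library. Rps27, a small subunit zinc finger protein, was at 53.9 FPKM in D12S- and between 7.56 and 17.7 FPKM in the other 11 libraries. Its interval in D12S- ran from 0 to 411 FPKM, and 99.7% of its windows were found elsewhere. In mESCs, Rpl29, a large subunit protein, was at 138 FPKM, as against 731 FPKM in iPSCs and no less than 485 FPKM in any other library. Rplp0, the stalk base, was lowest in mESCs (1442 FPKM; 3184 FPKM in iPSCs), and Rps18, a head protein of the small subunit, was highest there (3415 FPKM; 1440 FPKM in iPSCs). Rpl30, in contrast, was high in several libraries, with 222 FPKM in D3, 223 in iPSCs and 199 in mESCs. It was at 125 FPKM in D0 and at most 151 FPKM in the remaining libraries.

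Some members were lower in some of the later libraries than in D0. Rpl41 was at 4979 FPKM in D0 and lower in D16S+ (3155 FPKM) and D16S- (2947 FPKM), and in iPSCs it was at 4523 FPKM. Rps20 was at 2730 FPKM in D0, 2163 in D3 and 1828 in D16S-. It was above D0 in D6T- (3005 FPKM), D9T- (2846 FPKM), iPSCs (2911 FPKM) and mESCs (3133 FPKM). On day 12, when most members were slightly lower in SSEA-1+ cells, Rps24 was at 505 FPKM in D12S+ and 644 in D12S-. The 3 members that were not higher in iPSCs than in D0 were Rps27l (196 against 228 FPKM), Rpl41 and Rpl38 (1519 against 1541 FPKM), the last named after its values were seen.

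Promoter sequence was examined because most members differed together. RefSeq promoters (GRCm38.p6, 250 bases before to 50 after the annotated start) were found for 62 of the 83 members. A run of at least 8 pyrimidines (C or T) beginning within 20 bases of the start was present in 48.4% of these, and in 18.3% of 26963 other genes. CCGGAAG, a core of the sites bound by ETS factors such as GABPA, was present on either strand in 40.3% of the members and 9.86% of the others. TATAA on either strand was in 29.03% and 28.0%. Windows from 10 bases before to 20 after the start are shown for 2 members with such a run, in capitals.
Rps12, chr10:23787190-23787219, minus strand: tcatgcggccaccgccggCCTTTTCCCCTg
Rpl39, chrX:37085203-37085232, minus strand: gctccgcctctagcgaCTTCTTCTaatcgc
These are matches of letters near annotated starts and not measured sites.

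Other genes of the ribosome pathway were described from lists. Some ribosomal protein genes have names outside the rule. Rpsa, a small subunit protein, was at 1104 FPKM in D0 and 1337 in iPSCs, and Gnb2l1, which encodes RACK1, at 2629 and 2983 FPKM. Fau was at 1473 and 1650 FPKM, and Rpl36al at 385 and 505 FPKM. On day 16, Rpsa was at 1173 FPKM in SSEA-1+ and 932 FPKM in SSEA-1- cells, and Fau at 1331 and 1304 FPKM. Each of these pairs of values differed by less than 1.5-fold.

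Ribosome biogenesis genes, which make and assemble rRNA and subunits, had larger medians than the members in all 9 comparisons. Of 47 genes, 40 were at least 1.5-fold higher in iPSCs than in D0 (29.9% of all genes) and 0 lower (30.7%), with a median of 1.21. Npm1, a nucleolar chaperone, was at 129 FPKM in D0 and 471 in iPSCs, Dkc1, the pseudouridine synthase of rRNA, at 6.65 and 37.6 FPKM, and Polr1b, a subunit of RNA polymerase I, at 9.34 and 44.4 FPKM. Eif6, an anti-association factor of the large subunit, was at 177 and 169 FPKM. Already at D3 the list had a median of 0.72 over D0 with 28 of 47 at least 1.5-fold higher (13.2% of all genes), when the members themselves were at 0.06. Its medians between fractions were 0.66 (day 6), 0.39 (day 9), 0.20 (day 12) and 0.47 (day 16).

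Other TOP mRNAs and elongation factors (13 genes) had a median of 0.58 between iPSCs and D0, with 6 at least 1.5-fold higher (29.9% of all genes) and 1 lower (30.7%). Eef1b2, an exchange factor of elongation, was at 379 FPKM in D0 and 708 in iPSCs, whereas Tpt1, a TOP mRNA for a calcium-binding protein, was at 2296 and 1506 FPKM. Between fractions their medians were 0.40 (day 6), 0.25 (day 9), -0.16 (day 12) and 0.20 (day 16). Regulators of ribosomal protein mRNAs (15 genes) had a median of 0.67 between iPSCs and D0, with 9 at least 1.5-fold higher (29.9% of all genes) and 0 lower (30.7%). Mycn was at 0.843 FPKM in D0 and 17.8 in iPSCs, and Sp1 at 4.98 and 23.0 FPKM. On day 16, 12 of the 15 were higher by any amount in SSEA-1+ than in SSEA-1- cells (48.3% of all genes). At least 1.5-fold higher were 6 (22.6%) and 1 was lower (25.7%). The largest rises were in Mycn (36.4 against 3.04 FPKM), Gabpa (13.0 against 4.11 FPKM) and Sp1 (24.1 against 10.7 FPKM). Myc, read together with its virus, was one of the 3 that were lower by any amount (92.6 against 599 FPKM). It was at 27.3 FPKM in D0, and on day 6 at 542 FPKM in Thy-1- and 202 FPKM in Thy-1+ cells.

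Mitochondrial ribosomal proteins (77 genes), which translate the mitochondrial genome, were less uniform. Their median between iPSCs and D0 was 0.24, with 24 of 77 at least 1.5-fold higher (29.9% of all genes) and 8 lower (30.7%), whereas no cytosolic member was lower by that much. Mrps5 was at 27.9 FPKM in D0 and 83.7 in iPSCs, and Mrps6 at 193 and 27.5 FPKM. Between D16S- and D0 their median was -0.39 with 25 lower (23% of all genes). Their share of the summed FPKM was 0.756% in D0 and 0.863% in iPSCs. Medians between fractions were 0.28 (day 6), 0.14 (day 9), 0.07 (day 12) and 0.20 (day 16).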

How the data were processed

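Per the labels and the study's methods, the authors mapped stranded TruSeq mRNA libraries to mm9 with STAR, removed reads with more than 2 mismatches or more than 1 locus, and computed the deposited FPKM and its interval with Cuffdiff. Versions, annotation, read length and library scaling were not given in the sources used here. Removal of reads with several loci can lower members that have pseudogene copies. The 12 status columns were not used. An FPKM of 0 can be a failed estimate.

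Genes with at least 1 FPKM in any library were kept, and log2(FPKM + 1) was compared between single libraries without a test, since each condition had 1 library. Members past 1.5-fold were counted. Windows of 50, 100 and 200 bases of 1 GENCODE M1 transcript per gene were searched by exact match on 22 mm9 sequences. The counting step was tested on simulated data. Python 3.11.15, numpy 2.4.6 and pandas 2.3.3 were used. Named members were the extremes by level, by variation and by comparison (mean of at least 10 FPKM), the paralogs and the stalk genes, and list genes by their largest differences. Members and lists were chosen with earlier results of these data known. Alternatives were another pseudocount, scaling, filter, fold threshold and member set. Results that need 2 of the genes so chosen are not given.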

Additional observations from a re-analysis of the deposited data

How the results depend on the processing

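Of 189 values recomputed with other settings, 154 stayed within 1.5 times (counts and shares) or 0.25 (log2 medians) of those reported and 35 did not. Another 21, with settings chosen after seeing the data, all stayed within these limits. The limits are wide beside the differences. The share in iPSCs was 1.54 times that in D0, and a median such as 0.06 for D3 minus D0 can change sign within 0.25. This tally therefore does not show that the smaller differences are stable. No paired analysis was possible because each condition had 1 library. Scaling to the same summed FPKM moved the median against D0 to 0.33 in D3, 0.65 in D16S+ and 0.27 in D16S-, whose sign thereby changed. It moved the counts higher than D0 to 13 (2836) in D3, 45 (5914) in D16S+, 10 (4029) in D16S- and 53 (5029) in iPSCs. The brackets give the counts among all 14178 genes. For D3 and D16S- the share of members stayed below that of all genes, and for D16S+ and iPSCs it was above. The counts lower than D0 moved to 0 (3160) in D16S+ and 2 (2081) in D16S-. Between fractions the scaling gave 8 (1900) higher in D6T- and 0 (1582) lower in D9T-. By its construction this scaling raises every gene against D0, whose summed FPKM was the highest. Centring on the median of all genes gave 10 (2121) higher in D6T- than D6T+. In D16S- against D0 it gave 1 (2716) higher and 7 (3695) lower. A threshold of 2-fold gave these counts of the 83 members, with those among all 14178 genes in brackets. Higher than D0 were 12 (2835) in D16S+, 0 (1821) in D16S-, 0 (816) in D3 and 7 (2650) in iPSCs. Higher between fractions were 10 (1669) in D16S+, 1 (415) in D6T- and 7 (257) in D9T-. Lower than D0 were 0 (2957) in D16S+, 2 (1620) in D16S- and 0 (1229) in D3. Lower were also 0 (914) in D9T- than D9T+ and 4 (1050) in iPSCs than mESCs. A pseudocount of 0.1 gave 2 lower for D3 against D0 (3142) and 2 for D6T- (3267). Without the paralogs (76 members, shares of all genes unchanged) 0 were higher in D12S+ than D12S- and 1 in D16S- than D0. Lower than D0 were 1 in D16S+, 2 in D16S- and 0 in D3. Lower between fractions were 0 in D6T- and 0 in D9T-. The median for D12S+ minus D12S- lay between -0.02 and 0.03 and changed sign under 2 alternatives. Leaving out a replicate was not possible. The values rest on single libraries with intervals about as wide as the values, so the error of a single member's difference is unknown.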
